A study of Caenorhabditis elegans with 9 samples.

Results

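The comparison set the transcriptome of the *sma-3(wk30)* mutant directly against that of the *sma-9(ok1628)* mutant, to ask which functions part a mutant of a Smad from a mutant of its Schnurri cofactor. The libraries were chosen by the genotype in their titles, which gave 6 of the 9 libraries of the series, 3 of each mutant, and the 3 wild-type (N2) libraries entered only as a reference level. All were made from polyA RNA of whole *C. elegans*, synchronized by bleaching gravid adults and grown at 20 °C to the late L2 larval stage. None of the groups is labelled with a further allele or a treatment. Each mutant was 1 strain with 1 allele (CS24 and VC1183), so a difference between the strains at another locus cannot be told apart from an effect of *sma-3* or *sma-9*. Of 46875 genes listed, 13105 reached at least 1 CPM, the reads of a gene scaled to the library total, in at least 3 libraries and were tested, all as log2(CPM + 1). A log2 difference is the *sma-3* mean minus the mean of the other mutant on this scale, given ± its standard error, and it is smaller than the true fold for weakly expressed genes.

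DBL-1, a BMP-like ligand, signals through the receptors SMA-6 and DAF-4 to SMA-4 and the receptor-regulated Smads SMA-2 and SMA-3. SMA-9 is a large zinc finger protein of the Schnurri family, which in flies and vertebrates acts with Smads on target genes. The pathway sets body size, and it is also known for roles in the mesoderm of the M lineage, fat storage and defence against microbes. The larval cuticle, a collagen matrix secreted by the epidermis and replaced at each moult, is the tissue through which body size is thought to be set.

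The libraries of the 2 mutants held between 58889275 and 82735807 reads on genes, so that 3 reads were worth between 0.035 and 0.0503 CPM, depending on the library, and values below this rest on fewer. Replicates correlated at 0.995 to 0.997 in *sma-3* and at 0.987 to 0.995 in the *sma-9* group (Pearson, across the tested genes, which are not independent). In the *sma-9* group replicate 1 stood apart from replicates 2 and 3. Wild-type replicate 3 correlated with the other wild-type libraries at 0.983 and 0.981, whereas those correlated at 0.992, and leaving it out gave 1635 lower and 1507 higher calls. The numbers in the library names were 14, 15 and 16 for *sma-3*, 7, 8 and 10 for *sma-9* and 6, 7 and 9 for the wild-type, so genotype and whatever these numbers stand for cannot be told apart. The same holds for any place of the wild-type near the libraries labelled *sma-9*. Wild-type replicate 2 and replicate 1 labelled *sma-9* shared the number 7, and their deviations from their group means correlated at 0.611 across the tested genes. Between groups, libraries with unlike numbers reached 0.581, for wild-type replicate 3 and replicate 2 labelled *sma-9*. *sma-3* itself (chromosome III, 6860974 to 6863968 of WBcel235) had 12.6, 13.3 and 14.2 CPM in its mutant and 38.3, 37.2 and 36.6 CPM in the other (−1.42 ± 0.09, adjusted p = 1.79e-05), with the wild-type at 26.5, 21.4 and 22.4 CPM between them. *sma-9* (chromosome X, 10769282 to 10782973) was not lower in the libraries that carry its label. It was at 173, 213 and 219 CPM in the libraries labelled *sma-9*, above 122, 114 and 129 CPM in *sma-3* (−0.72 ± 0.13, adjusted p = 0.00667) and 87.6, 89.4 and 119.1 CPM in the wild-type. Gene-level counts do not show the lesion of an allele, so this level cannot decide the genotype. The libraries are called by their label, and each direction below rests on it. Adjusted p-values are from limma over all 13105 genes, with 3 libraries a group, and an adjusted p of at most 0.05 is a call. Each called gene given with its adjusted p kept the call whichever single library was left out, except where stated. *lips-12*, *lips-13*, *ilys-2*, *vit-4* and *pud-3* had passed the filter only through the 3 libraries of the mutant in which they were high. They were left untested when one of those was left out, so their adjusted p-values are no sign of stability. Their direction was fixed by the filter, also where they are counted in a list or run below. Whether reads were counted by strand is not given in the sources used here, so genes that overlap another, such as *sma-9*, *sma-2*, *ZC239.6*, *fat-5*, *haf-6*, *vit-2* and *zip-10*, and near-identical copies may share reads.

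*sma-3* had lower levels of 1193 genes than the libraries labelled *sma-9* and higher levels of 1122. The calls took in 17.7% of the tested genes, 9.10% lower and 8.56% higher, and these shares are the background for every group of genes below. The typical difference was modest, with a median log2 difference of −0.49 among the lower and 0.67 among the higher genes and of −0.02 over all genes. Only 507 genes (3.87%) were also at least 2-fold apart, of which 173 were lower and 334 higher in *sma-3*. The 3 values of one mutant lay wholly outside those of the other for 42.4% of all tested genes, including 1193 of the lower and 1121 of the higher calls. The number of calls rested strongly on single libraries. It was 482 lower and 450 higher without *sma-3* replicate 2, 518 and 443 without *sma-3* replicate 3, 719 and 710 without *sma-3* replicate 1, 736 and 683 without replicate 2 labelled *sma-9*, 667 and 613 without its replicate 3, and 984 and 1085 without its replicate 1.

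The wild-type level placed each difference. Its position was measured on the line from the *sma-9* mean (0) to the *sma-3* mean (1), and a gene within 0.25 of an end was placed there. Among the genes lower in *sma-3*, the wild-type was at the level of the libraries labelled *sma-9* for 437 and at the *sma-3* level for 163. Among the genes higher in *sma-3* it was at the level of the libraries labelled *sma-9* for 456 and at the *sma-3* level for 165. It lay between the mutants for 314 of the lower and 324 of the higher genes, with the mutants on opposite sides of it, and outside both for the rest. Over all 13105 tested genes, called or not, it was at the level of the libraries labelled *sma-9* for 19.1%, beyond that level for 31.1%, between the mutants for 17.6%, at the *sma-3* level for 11.1% and beyond it for 21.1%. For the lower genes the shares at either mutant's level were 36.6% and 13.7%, and for the higher genes 40.6% and 14.7%, in the same order. These places are descriptions, without a test against the wild-type.

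Within the pathway the mutants differed at 5 of 18 tested members, all lower in *sma-3* (median log2 difference −0.17), and 1 member was higher without wild-type replicate 3, with the 6 mutant libraries alone or with a replicate block. Besides *sma-3* and *sma-9* these were *sma-6*, the type I receptor, *sma-2*, another receptor-regulated Smad, and *lon-1*, a secreted protein that limits body length. *sma-6* was at 22.8, 22.6 and 23.6 CPM in *sma-3* against 41.7, 47.9 and 50.4 CPM in the libraries labelled *sma-9* (log2 difference −0.99 ± 0.09, adjusted p = 2.40e-04). *sma-2* was at 8.47, 9.56 and 9.73 CPM in *sma-3* against 17.1, 15.7 and 20.52 CPM in the other mutant (−0.87 ± 0.11, adjusted p = 0.00111). For both genes the wild-type, at 37.8, 37.4 and 44.6 CPM and 14.4, 16.2 and 15.9 CPM, was at the level of the libraries labelled *sma-9*. *lon-1* was above the wild-type (100.46, 116 and 95.3 CPM) in both mutants, at 191, 188 and 179.9 CPM in *sma-3* and 303, 241 and 234 CPM in the libraries labelled *sma-9* (log2 difference −0.46 ± 0.11, adjusted p = 0.021). Its call was lost without *sma-3* replicate 1 (0.0532), 2 (0.0743) or 3 (0.0834). The ligand gene *dbl-1* was at 31.2, 29.9 and 31.1 CPM and 29.4, 26.6 and 30.6 CPM in the 2 mutants (0.09 ± 0.08, adjusted p = 0.493), with overlapping values, and *daf-4*, *sma-4* and the glypican gene *lon-2* were not called either. The 6 tested members of the dauer branch, which uses another TGF-beta ligand, gave 0 calls (limma, 1 at an unadjusted p under 0.05, and 0 calls with voom weights).

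The largest differences were *lips-11* and a set of genes nearly silent in *sma-3*, and in the other direction genes such as *spp-9* and *asp-12*, for which the wild-type was close to the libraries labelled *sma-9*. The 10 called genes with the largest change in each direction are shown first.

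**Figure D1:**
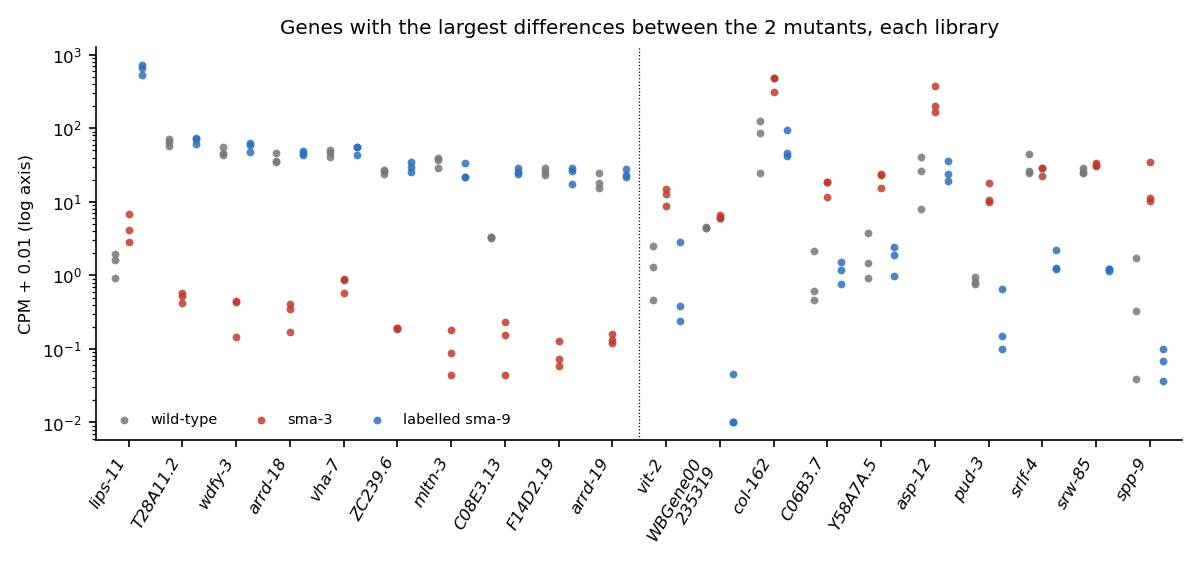
Level of each gene in CPM (plus 0.01, log axis) in every library, for the 10 genes with the largest log2 difference lower (left of the dotted line) and higher (right) in *sma-3*. Each point is 1 library, grey for wild-type, red for *sma-3* and blue for the libraries labelled *sma-9*. *lips-11* is high only in the libraries labelled *sma-9*, while 8 of the other 9 genes on the left are near the wild-type there and under 1 CPM in *sma-3*. *C08E3.13* lies above the wild-type in one mutant and below it in the other.

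*lips-11*, which encodes a predicted lipase, was at 669, 525 and 729 CPM in the libraries labelled *sma-9*, at 6.78, 4.09 and 2.86 CPM in *sma-3* and 1.59, 1.94 and 0.913 CPM in the wild-type (−6.89 ± 0.25, adjusted p = 2.89e-07). This made it 140.0 times as abundant in the libraries labelled *sma-9* as in *sma-3*. *C08E3.13* was at 0.221, 0.0335 and 0.146 CPM in *sma-3* against 23.6, 25.6 and 29.1 CPM in the other mutant, with the wild-type at 3.29, 3.26 and 3.35 CPM between them (−4.58 ± 0.11, adjusted p = 1.41e-08). *mltn-3* was nearly silent in *sma-3*, at 0.0791, 0.0335 and 0.170 CPM against 34.03, 21.5 and 21.8 CPM (−4.58 ± 0.18, adjusted p = 4.36e-07), with the wild-type at 29.04, 37.6 and 38.9 CPM.

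In the other direction 7 of the 10 genes were higher in *sma-3* with the wild-type at the level of the libraries labelled *sma-9*, among them the saposin gene *spp-9*, the aspartyl protease gene *asp-12* and the collagen gene *col-162*. *spp-9* was at 11.3, 10.2 and 34.8 CPM in *sma-3* against 0.0886, 0.0267 and 0.0583 CPM in the other mutant (4.01 ± 0.45, adjusted p = 6.01e-04). *pud-3* was at 10.7, 17.8 and 9.91 CPM against 0.0886, 0.642 and 0.140 CPM (3.401 ± 0.22, adjusted p = 1.91e-05). For *srw-85*, a predicted chemoreceptor gene, *srlf-4* and WBGene00235319, the wild-type was instead at the *sma-3* level and the libraries labelled *sma-9* were low. *srw-85* was at 1.195, 1.15 and 1.21 CPM in those libraries, at 34.3, 31.5 and 30.3 CPM in *sma-3* and 29.1, 24.5 and 25.7 CPM in the wild-type (3.92 ± 0.09, adjusted p = 1.41e-08). *srlf-4* was at 2.18, 1.203 and 1.27 CPM in the libraries labelled *sma-9* and at 28.5, 29.1 and 22.3 CPM in *sma-3* (3.45 ± 0.23, adjusted p = 1.91e-05). Its neighbour *C32H11.4* on chromosome IV, named after its values were seen, went the other way, at 245, 350.3 and 335 CPM in the libraries labelled *sma-9* and 22.7, 21.02 and 26.6 CPM in *sma-3* (−3.66 ± 0.23, adjusted p = 1.62e-05).

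Many of the genes with the largest differences lay side by side. Runs of at least 3 adjacent tested genes in which one mutant had at most 10% of the mean CPM of the other were sought after the largest genes had been seen, and 4 were found. The longest held 13 genes on chromosome V, from 3276956 to 3340089 (WBcel235), all called lower in *sma-3*. Across the 13 genes single *sma-3* libraries held between 0 and 0.569 CPM, the libraries labelled *sma-9* between 1.15 and 74.1 CPM and the wild-type libraries between 0.404 and 71.2 CPM. The run included *fbxa-64*, *T28A11.2*, *arrd-18* and *arrd-19*, the *arrd* genes encoding arrestin-domain proteins. *arrd-18* was at 0.158, 0.403 and 0.340 CPM in *sma-3* against 46.05, 48.8 and 43.9 CPM in the libraries labelled *sma-9* (log2 difference −5.19 ± 0.12, adjusted p = 1.41e-08). *T28A11.2* was at 0.569, 0.520 and 0.413 CPM in *sma-3* against 60.9, 70.8 and 74.1 CPM in the other mutant (−5.53 ± 0.11, adjusted p = 1.17e-08). The nearest tested gene on the left, *T28A11.17*, was not called (−0.38 ± 0.12, adjusted p = 0.0594), and the nearest on the right, *C17B7.10*, was lower in *sma-3* by less (log2 difference −0.64), at 0.727, 0.520 and 0.584 CPM in *sma-3* against 1.21, 1.35 and 2.004 CPM in the libraries labelled *sma-9* and 0.374, 0.545 and 0.414 CPM in the wild-type. Both genes were named after their values were seen. *C17B7.10* had passed the filter only through the libraries labelled *sma-9*, so its direction was fixed by the filter. Its call was lost without *sma-3* replicate 2 (limma, adjusted p = 0.0589) or 3 (0.0524).

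**Figure D2:**
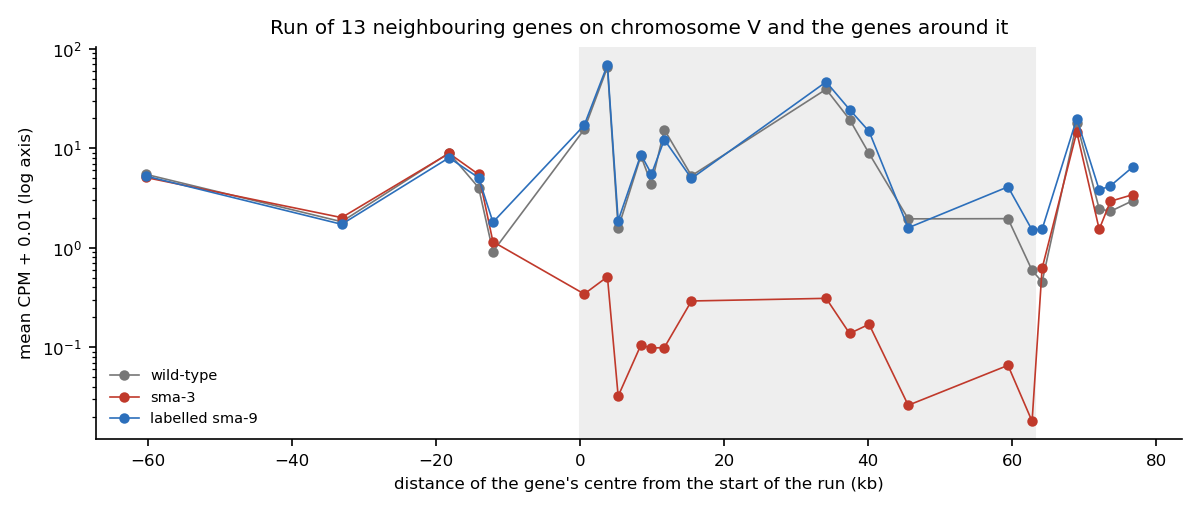
Mean CPM (plus 0.01, log axis) of neighbouring tested genes on chromosome V against the distance of the gene's centre from the start of the run, in kb, for wild-type (grey), *sma-3* (red) and the libraries labelled *sma-9* (blue), each the mean of 3 libraries. Inside the shaded run of 13 genes the *sma-3* means lie at or under 0.501 CPM. None of the 5 tested genes on the left was called, and at the 5 on the right, all called lower, the *sma-3* means are 0.610 to 14.5 CPM.

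The second run lay on chromosome IV from 12640462 to 12676004 and held *vha-7*, a subunit of the vacuolar proton pump, *wdfy-3*, a homologue of an autophagy adaptor, and *T23B5.4*. *vha-7* was at 0.569, 0.855 and 0.875 CPM in *sma-3*, 43.5, 54.9 and 56.5 CPM in the libraries labelled *sma-9* and 45.7, 40.8 and 51.1 CPM in the wild-type (−4.89 ± 0.13, adjusted p = 2.72e-08). *wdfy-3* was at 0.443, 0.134 and 0.425 CPM in *sma-3* against 47.3, 58.9 and 63.3 CPM in the libraries labelled *sma-9* (log2 difference −5.43 ± 0.15, adjusted p = 2.90e-08). The genes *ark-1* and *prmt-9*, named after their values were seen, lay on either side of this run and were not called (−0.12 and −0.08, adjusted p = 0.426 and 0.703). The third run lay on chromosome II from 1108841 to 1118042 and held *lips-11*, *lips-12* and *lips-13*, high only in the libraries labelled *sma-9*. The last was a run of 3 genes low in those libraries on chromosome V from 16926922 to 16930063, *Y102A5C.36*, WBGene00014954 and WBGene00014955, with 0 to 0.233 CPM there, 1.31 to 6.69 CPM in *sma-3* and 1.23 to 10.1 CPM in the wild-type. A wider stretch of chromosome II, from 3177963 to 3757428, held 10 more genes at or under 10% of the other mutant in *sma-3*, among them *ZC239.6*, *F14D2.19* and *bath-28*, spread among 54 tested genes of which 20 were lower and 1 was higher. *F14D2.19* was at 0.0632, 0.117 and 0.0486 CPM in *sma-3* against 17.4, 26.0 and 29.3 CPM in the libraries labelled *sma-9* (log2 difference −4.52 ± 0.17, adjusted p = 3.36e-07). This window was drawn after its values were seen. Without the genes of the 4 runs, 1174 genes were lower and 1119 higher.

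Beyond single genes, lists of functions were described by how many members were called, beside the 9.10% lower and 8.56% higher of all tested genes.

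**Figure D3:**
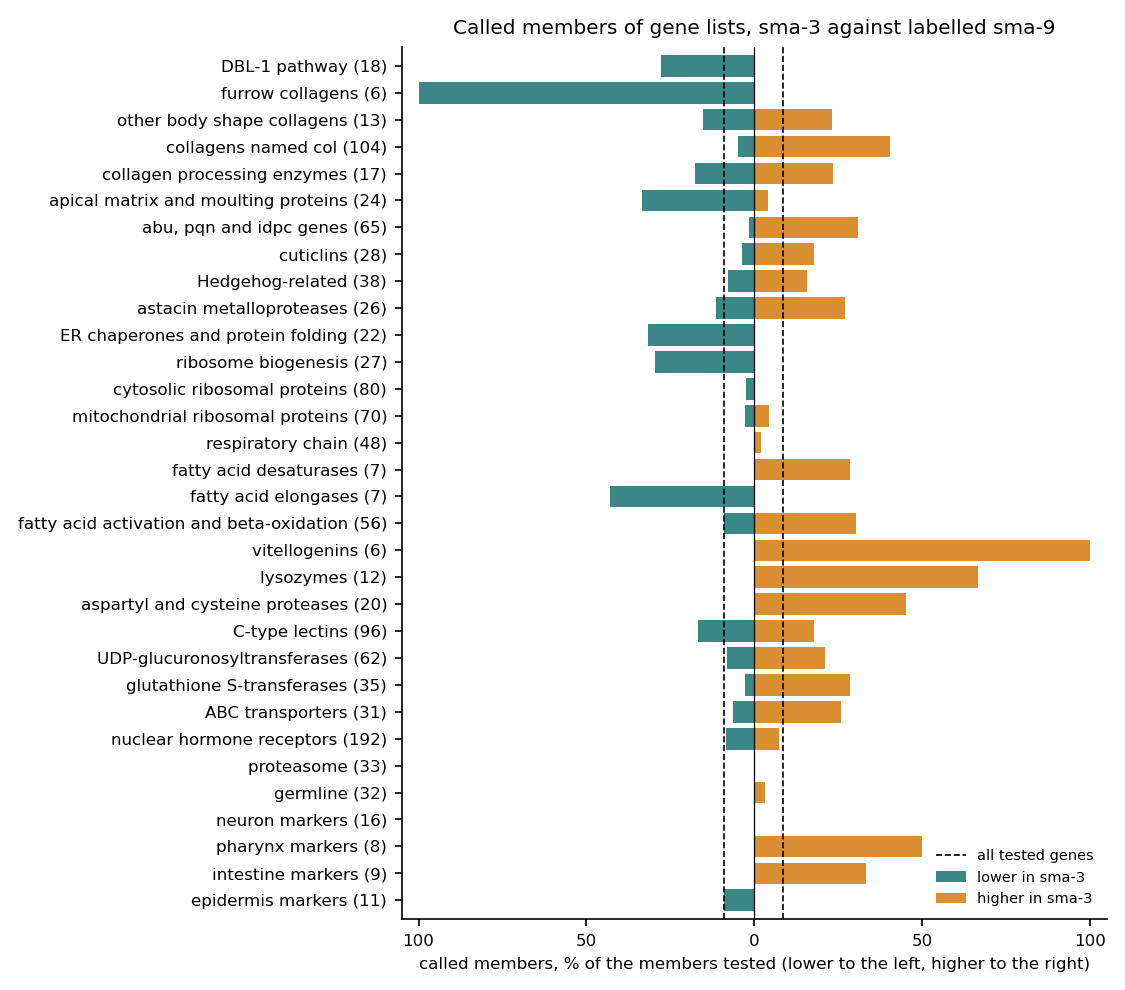
Share of the tested members of each list called lower (left) or higher (right) in *sma-3* than in the libraries labelled *sma-9*, in percent, with the number of tested members in brackets. The dashed lines mark the shares over all tested genes, 9.10% lower and 8.56% higher. All 6 furrow collagens lie to the left and all 6 vitellogenins to the right, while the proteasome and neuron lists have no called member. The vitellogenin genes *vit-3* and *vit-4* passed the filter only through the *sma-3* libraries.

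The cuticle collagens split into opposite groups. The 6 furrow collagens, which build the annular furrows of the cuticle, were all lower in *sma-3* (median log2 difference −0.92), whereas of the tested collagens named *col*, 42 were higher, 5 lower and 57 not called (median 0.87). Of 13 other collagens that shape the body, 3 were higher (median −0.08) and 2 were lower, 0 without *sma-3* replicate 1, 2 or 3 or replicate 1 or 3 labelled *sma-9* and 1 without wild-type replicate 1 or 2 or replicate 2 labelled *sma-9*. Another 52 of the 156 *col* genes listed did not pass the filter. For all 6 furrow collagens the 3 values of each mutant were apart, compared with 42.4% of all genes.

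*dpy-7* was at 239, 175 and 158 CPM in *sma-3*, at 353, 383 and 399.5 CPM in the libraries labelled *sma-9* and at 451, 412 and 499 CPM in the wild-type (−1.005 ± 0.14, adjusted p = 0.00224). *dpy-10* was at 188, 129 and 125 CPM in *sma-3* against 273, 317 and 307 CPM in the other mutant (−1.04 ± 0.17, adjusted p = 0.00398). *dpy-2* and *dpy-9* differed by −0.90 ± 0.17 (adjusted p = 0.00836) and −0.93 ± 0.14 (adjusted p = 0.00285). Each furrow collagen was lowest in *sma-3* replicate 2 or 3, and the wild-type was at or above the level of the libraries labelled *sma-9*. *dpy-3* (−0.71 ± 0.16, adjusted p = 0.0179) lost its call without *sma-3* replicate 2 (0.0743), *sma-3* replicate 3 (0.057) or replicate 2 labelled *sma-9* (0.0587), and *dpy-8* (−0.80 ± 0.16, adjusted p = 0.0113) lost it without *sma-3* replicate 2 (0.0532).

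Among the *col* genes higher in *sma-3*, the wild-type was at the level of the libraries labelled *sma-9* for 37 of 42. *col-162* was at 308, 484 and 489 CPM in *sma-3* against 94.9, 42.6 and 46.5 CPM in the libraries labelled *sma-9* (log2 difference 2.84 ± 0.54, adjusted p = 0.00815). *col-156* was at 216, 321 and 299.9 CPM against 85.7, 35.4 and 43.5 CPM (2.41 ± 0.49, adjusted p = 0.0113), and lost its call without *sma-3* replicate 2 (0.0524). *col-101* was one of the 5 that went the other way, at 1.09, 1.48 and 1.03 CPM in *sma-3* and 5.11, 9.53 and 4.75 CPM in the other mutant (−1.71 ± 0.24, adjusted p = 0.00211). The blister collagens *bli-1* and *bli-6*, which form struts of the adult cuticle, were low in all libraries and higher in *sma-3*. *bli-6* was at 4.98, 4.63 and 7.18 CPM in *sma-3* against 0.443, 0.481 and 1.37 CPM (1.92 ± 0.28, adjusted p = 0.00222), and *bli-1* at 4.85, 4.23 and 6.49 CPM against 0.841, 0.602 and 1.55 CPM (1.64 ± 0.24, adjusted p = 0.00224). The collagens *sqt-3*, *dpy-13* and *rol-6* were not called (−0.08, 0.50 and −0.38), and replicate 1 labelled *sma-9* had the highest value of its group for each of them.

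The counts of *col* genes moved with single libraries. The higher ones were 17 without *sma-3* replicate 2 or 3, 24 without replicate 2 labelled *sma-9* and 25 without replicate 3 labelled *sma-9*, but 41 without replicate 1 labelled *sma-9* and 57 without wild-type replicate 3. The lower ones were 1 without *sma-3* replicate 2 or 3 or replicate 2 labelled *sma-9* and 3 without replicate 1 or 3 labelled *sma-9*. Collagen mRNAs rise and fall within each moulting cycle, and of 17 regulators of moulting and stage timing 1 was lower and 1 higher in *sma-3*. The lower ones numbered 2 without wild-type replicate 3, the higher ones 2 without wild-type replicate 1, 3 without wild-type replicate 2 and 4 without wild-type replicate 3. The lower one was *let-418*, a chromatin remodeller (−0.49 ± 0.09, adjusted p = 0.00577), and the higher one *nhr-85*, a nuclear receptor of the moulting oscillator, at 18.1, 19.7 and 20.2 CPM against 13.1, 13.7 and 13.5 CPM (0.49 ± 0.07, adjusted p = 0.00283). The moulting receptor gene *nhr-23* was at 60.3, 43.4 and 53.99 CPM in *sma-3*, 50.1, 86.6 and 72.0 CPM in the libraries labelled *sma-9* and 68.0, 48.3 and 89.5 CPM in the wild-type, with overlapping values (−0.38 ± 0.25, adjusted p = 0.33). *lin-42*, a period homologue, was at 418, 363 and 308 CPM and 447, 439.7 and 419.8 CPM in the 2 mutants (−0.27 ± 0.14, adjusted p = 0.219). The part of these stage timing genes in the cuticle differences was not tested.

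**Figure D4:**
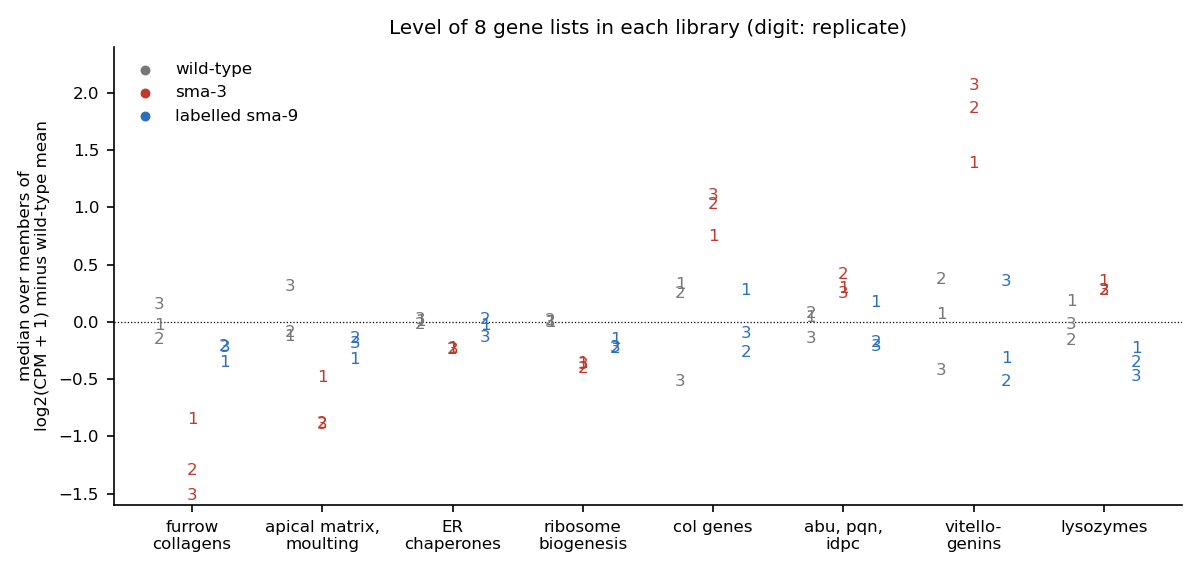
For 8 gene lists, the median over the tested members of log2(CPM + 1) minus the wild-type mean of the gene, in each library. Digits are replicate numbers, grey for wild-type, red for *sma-3* and blue for the libraries labelled *sma-9*, and the dotted line is the wild-type mean. The furrow collagens lie at −0.85 to −1.52 in *sma-3*, and the *col* genes lie at 0.74 to 1.099 there but spread from −0.52 to 0.33 within the wild-type.

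Of 65 tested genes named *abu*, *pqn* or *idpc*, many of which encode low-complexity proteins of the pharyngeal cuticle, 20 were higher, 1 lower and 44 not called (median 0.38), a group picked after its values were seen. For all 20 higher genes the wild-type was at the level of the libraries labelled *sma-9*. *abu-15* was at 75.8, 97.1 and 106 CPM in *sma-3*, 31.5, 13.6 and 14.6 CPM in the libraries labelled *sma-9* and 31.6, 27.4 and 10.1 CPM in the wild-type (2.25 ± 0.42, adjusted p = 0.00701). *pqn-2* was at 18.6, 25.9 and 24.5 CPM in *sma-3* against 5.48, 1.38 and 2.23 CPM (2.696 ± 0.38, adjusted p = 0.00193). Replicate 1 labelled *sma-9* was the highest of its group for each of these, and the count was 30 without it and 8 without *sma-3* replicate 2 or 3, 9 without replicate 3 labelled *sma-9* and 10 without replicate 2 labelled *sma-9*. Several *abu* genes have close copies, between which reads could have been shared.

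Of 24 proteins of the apical matrix that precedes the cuticle 8 were lower in *sma-3*, 1 higher and 15 not called (median −0.52). *qua-1*, a Hedgehog-related protein needed for moulting, was at 438, 368 and 320.0 CPM in *sma-3*, 986, 689 and 663 CPM in the libraries labelled *sma-9* and 926, 1215 and 1101 CPM in the wild-type (−1.04 ± 0.18, adjusted p = 0.00472). The count of lower ones was 1 without *sma-3* replicate 2 or 3, 2 without replicate 2 or 3 labelled *sma-9* and 15 without wild-type replicate 3, and that of higher ones 0 without *sma-3* replicate 2 or 3 or replicate 2 or 3 labelled *sma-9*.

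Of 38 Hedgehog-related genes, secreted proteins of which many act in moulting, 3 were lower (1 without *sma-3* replicate 2 or 3 or replicate 1 labelled *sma-9*) and 6 higher (1 without *sma-3* replicate 2 or 3, 2 without replicate 2 or 3 labelled *sma-9*, 3 without *sma-3* replicate 1 and 10 without wild-type replicate 3 or replicate 1 labelled *sma-9*). *wrt-10* was at 222, 150.01 and 149 CPM in *sma-3* and 300.3, 375 and 376 CPM in the other mutant (−1.03 ± 0.18, adjusted p = 0.00577), and *grd-13* at 102, 118.7 and 147 CPM against 53.7, 51.7 and 50.5 CPM (1.21 ± 0.23, adjusted p = 0.00791). The Patched-related gene *ptr-3* was at 33.3, 44.8 and 49.1 CPM against 18.3, 12.1 and 16.1 CPM (1.40 ± 0.23, adjusted p = 0.00451). It was 1 of 5 Patched-related genes of 26 that were higher (2 without *sma-3* replicate 2 or 3 and 3 without replicate 2 or 3 labelled *sma-9*), and 2 were lower (0 without *sma-3* replicate 2 or 3 or replicate 2 or 3 labelled *sma-9* and 1 without *sma-3* replicate 1). The astacin metalloproteases, some of which process collagens or digest the old cuticle, gave 7 higher of 26, a count that was 1 without *sma-3* replicate 2 or 3 or replicate 2 or 3 labelled *sma-9*, 3 without *sma-3* replicate 1, 4 without wild-type replicate 1 and 11 without replicate 1 labelled *sma-9*, and 3 were lower (1 without *sma-3* replicate 2 or 3 or replicate 2 or 3 labelled *sma-9*). *nas-1* was at 12.6, 20.8 and 21.1 CPM in *sma-3* against 7.05, 3.18 and 3.18 CPM (1.85 ± 0.32, adjusted p = 0.00552).

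The enzymes that fold, process and crosslink collagen also split, with 3 of 17 lower and 4 higher. The prolyl hydroxylase subunit *phy-2*, the disulfide isomerase *pdi-6* and the thioredoxin-like *dpy-11* act on collagen inside the endoplasmic reticulum (ER) or secretory path, and all 3 were lower in *sma-3*. *phy-2* was at 103, 93.6 and 92.5 CPM in *sma-3*, 144, 148 and 168 CPM in the libraries labelled *sma-9* and 163, 155 and 167 CPM in the wild-type (−0.67 ± 0.08, adjusted p = 8.41e-04). *pdi-6* was at 496, 478 and 488 CPM against 864, 807 and 662 CPM (−0.66 ± 0.10, adjusted p = 0.00299) and *dpy-11* at 359.6, 338 and 321 CPM against 488, 449 and 462 CPM (−0.46 ± 0.07, adjusted p = 0.00346). *mlt-7*, *doxa-1* and *tsp-15*, a peroxidase and partners of the dual oxidase that crosslink the finished cuticle, were higher. The other higher one, *bli-4*, which is not one of these crosslinking genes, differed by 0.31. Its call was lost whichever mutant library was left out, without wild-type replicate 1, with equal totals or without a filter. *mlt-7* was at 172, 207 and 234.7 CPM in *sma-3*, 88.3, 100.04 and 107 CPM in the libraries labelled *sma-9* and 99.3, 78.3 and 60.2 CPM in the wild-type (1.04 ± 0.18, adjusted p = 0.00463), with the highest wild-type value inside the range of the libraries labelled *sma-9*. *doxa-1* and *tsp-15* differed by 0.83 ± 0.13 (adjusted p = 0.00341) and 0.63 ± 0.11 (adjusted p = 0.00561).

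Of 22 ER chaperones and folding enzymes 7 were lower in *sma-3*, 0 higher and 15 not called (median −0.25), and the lower ones numbered 5 to 9 with a library left out. *hsp-4*, the BiP chaperone induced by ER stress, was at 139.6, 153 and 167 CPM in *sma-3* and 311, 333 and 252 CPM in the libraries labelled *sma-9* (log2 difference −0.95 ± 0.16, adjusted p = 0.00437). The wild-type, at 207, 197 and 139 CPM, overlapped *sma-3*, so for this gene the libraries labelled *sma-9* stood above both. Among the 7 lower ER genes the wild-type was at the *sma-3* level for only 1. It was at the level of the libraries labelled *sma-9* for 3, beyond that level for 1 and between the mutants for 2. Of 27 ribosome biogenesis genes 8 were lower, 0 higher and 19 not called (median −0.16), and for each lower one the wild-type was at or beyond the level of the libraries labelled *sma-9*. *rbd-1* was at 101.1, 91.6 and 99.2 CPM in *sma-3*, 133, 126 and 142 CPM in the other mutant and 146, 151 and 149 CPM in the wild-type (−0.45 ± 0.07, adjusted p = 0.00287), and *nst-1*, a nucleolar GTPase, at 211, 205 and 207 CPM against 274, 253 and 279 CPM (−0.37 ± 0.07, adjusted p = 0.00787). The biogenesis count was 3 without *sma-3* replicate 1, 2 or 3 or replicate 3 labelled *sma-9* and 4 without replicate 1 labelled *sma-9*. Of 80 cytosolic ribosomal proteins 2 were called, a share under the background.

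In lipid metabolism a few genes had large differences. *fat-5* and *fat-7*, desaturases that make the first double bond of fatty acids, were lowest in the libraries labelled *sma-9*. *fat-7* was at 67.0, 85.6 and 123 CPM in the wild-type, 26.0, 26.4 and 23.1 CPM in *sma-3* and 2.94, 3.62 and 2.796 CPM in the libraries labelled *sma-9* (log2 difference 2.67 ± 0.19 between the mutants, adjusted p = 3.28e-05). *fat-5* was at 34.7, 42.7 and 43.7 CPM, 16.2, 20.9 and 17.6 CPM and 3.34, 2.83 and 1.36 CPM in the same order (2.49 ± 0.21, adjusted p = 1.04e-04). Both genes thus had *sma-3* between the wild-type and the libraries labelled *sma-9*, with no overlap of the 3 groups. *fat-6*, their close relative, was at 336, 362 and 337 CPM and 399, 312 and 308 CPM in the mutants (0.03 ± 0.11, adjusted p = 0.878), both groups under the wild-type at 534, 613 and 539.5 CPM. The desaturases of later steps, *fat-1* to *fat-4*, were not called. *fat-5* overlaps other annotated genes, and *fat-6* and *fat-7* are similar in sequence, so reads may have been shared.

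**Figure D5:**
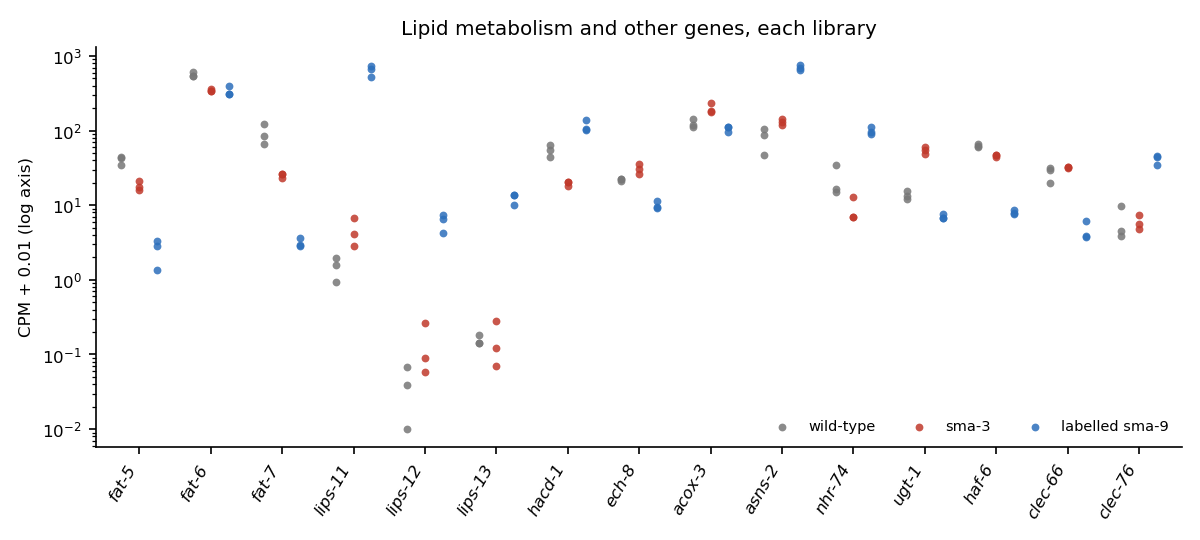
Level in CPM (plus 0.01, log axis) of 15 genes of lipid metabolism and other functions in every library, 1 point a library, grey for wild-type, red for *sma-3* and blue for the libraries labelled *sma-9*. *fat-5* and *fat-7* step down from wild-type to *sma-3* to the libraries labelled *sma-9*, while *fat-6* overlaps between the mutants, and the 3 *lips* genes, *asns-2* and *nhr-74* are highest in the libraries labelled *sma-9*.

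Of 18 lipases 3 were lower and 3 higher. The lower ones were *lips-11*, *lips-12* and *lips-13*, and they numbered 1 without replicate 1, 2 or 3 labelled *sma-9*, where *lips-12* and *lips-13* no longer passed the filter. The higher ones numbered 5 without wild-type replicate 3. *lips-12* was at 7.36, 4.26 and 6.55 CPM and *lips-13* at 13.7, 10.2 and 13.9 CPM in the libraries labelled *sma-9*, and no library of another group exceeded 0.268 CPM for either gene (adjusted p = 1.62e-05 and 2.89e-07). By contrast *lipl-2*, a lysosomal lipase gene, was at 15.3, 10.7 and 10.8 CPM in *sma-3* and 2.096, 4.81 and 2.12 CPM in the other mutant (1.77 ± 0.27, adjusted p = 0.00309), and *lips-15* at 103.8, 96.2 and 86.4 CPM against 40.8, 35.5 and 44.1 CPM (1.23 ± 0.22, adjusted p = 0.00567). Of 56 genes of fatty acid activation and beta-oxidation, 17 were higher and 5 lower in *sma-3* (median 0.23), and the higher ones numbered 9 without *sma-3* replicate 3 and 10 without *sma-3* replicate 2. The lower ones numbered 2 without *sma-3* replicate 2 or 3. The peroxisomal acyl-CoA oxidase *acox-3* was at 178, 185 and 231 CPM in *sma-3*, 112.4, 111 and 95.2 CPM in the libraries labelled *sma-9* and 119.7, 111 and 141 CPM in the wild-type (0.89 ± 0.12, adjusted p = 0.002). *ech-8* was at 26.2, 30.1 and 35.2 CPM against 9.37, 11.3 and 9.29 CPM (1.51 ± 0.12, adjusted p = 6.00e-05), whereas the enoyl-CoA hydratase *ech-7* was lower in *sma-3*, at 63.3, 57.1 and 50.1 CPM against 91.8, 89.8 and 94.4 CPM (−0.69 ± 0.09, adjusted p = 0.0018).

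*hacd-1*, a hydroxyacyl-CoA dehydrogenase named after its values were seen, had the wild-type between the mutants, at 20.52, 20.3 and 17.9 CPM in *sma-3*, 54.4, 44.1 and 64.6 CPM in the wild-type and 105.05, 101.4 and 137 CPM in the libraries labelled *sma-9* (log2 difference −2.48 ± 0.15, adjusted p = 1.27e-05). *asns-2*, an asparagine synthetase also named after its values were seen, was at 753, 699.5 and 652 CPM in the libraries labelled *sma-9* and at 120.2, 143 and 132 CPM in *sma-3* (−2.40 ± 0.24, adjusted p = 2.98e-04). *mpc-1*, a subunit of the mitochondrial pyruvate carrier, was at 56.2, 59.3 and 59.8 CPM in *sma-3* and 117, 92.2 and 102 CPM in the other mutant (−0.81 ± 0.10, adjusted p = 0.00117).

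The 6 vitellogenins, yolk proteins made in bulk by the adult intestine, were all higher in *sma-3* (median 1.86), although no larval library exceeded 16.7 CPM for any of them. *vit-6* was at 10.5, 15.3 and 16.7 CPM in *sma-3*, 0.959, 0.829 and 4.11 CPM in the libraries labelled *sma-9* and 1.91, 3.98 and 0.956 CPM in the wild-type (2.498 ± 0.43, adjusted p = 0.00508), and *vit-2* was at 8.76, 12.8 and 15.05 CPM against 0.369, 0.227 and 2.87 CPM (2.79 ± 0.45, adjusted p = 0.00371). *vit-4* was at 2.04, 2.53 and 3.20 CPM against 0.266, 0.307 and 0.303 CPM (1.46 ± 0.15, adjusted p = 3.20e-04). The mutants did not overlap at any of the 6 genes, compared with 42.4% of all tested genes, and *vit-3*, *vit-4* and *vit-5* have near-identical copies. *vit-3* and *vit-4* had passed the filter only through the 3 *sma-3* libraries, so their direction was fixed by the filter. The number called was 4 without *sma-3* replicate 1 and 3 without *sma-3* replicate 2 or 3, where *vit-3* and *vit-4* no longer passed the filter.

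Of 12 lysozymes, enzymes that break down bacterial cell walls, 8 were higher in *sma-3*, 0 lower and 4 not called (median 0.80, 5 without *sma-3* replicate 2). *ilys-2*, an invertebrate-type lysozyme, was at 5.50, 5.95 and 5.47 CPM in *sma-3*, 0.413, 0.201 and 0.268 CPM in the libraries labelled *sma-9* and 0.957, 0.206 and 0.656 CPM in the wild-type (2.36 ± 0.17, adjusted p = 3.26e-05). *lys-4* showed the opposite placing of the wild-type, at 274, 268 and 223 CPM in *sma-3*, 357, 269 and 293 CPM in the wild-type and 82.1, 91.0 and 78.0 CPM in the libraries labelled *sma-9* (log2 difference 1.59 ± 0.12, adjusted p = 5.34e-05). Of 20 aspartyl and cysteine proteases 9 were higher in *sma-3*, 0 lower (1 without wild-type replicate 3) and 11 not called (median 0.44), and the higher ones numbered 7 to 10 with a library left out. *asp-5* was at 1366, 1260 and 1336 CPM in *sma-3*, 1104, 1032 and 1013 CPM in the wild-type and 614, 674 and 510.4 CPM in the libraries labelled *sma-9* (log2 difference 1.15 ± 0.11, adjusted p = 2.23e-04), and *asp-1*, an abundant intestinal protease, was at 5154, 5114 and 5399 CPM against 3232, 3084 and 2457 CPM (0.85 ± 0.15, adjusted p = 0.00519). For both the wild-type lay between the mutants. *asp-12* was instead near the wild-type (26.0, 7.94 and 41.3 CPM) in the libraries labelled *sma-9* (35.6, 18.96 and 23.7 CPM) and higher in *sma-3* (203, 167 and 380.5 CPM, 3.17 ± 0.53, adjusted p = 0.00425).

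C-type lectins, a large family of which some respond to infection, did not share a direction, with 16 lower and 17 higher of 96 tested and another 144 not tested. The lower ones numbered 9 without replicate 2 labelled *sma-9* and 10 without *sma-3* replicate 2 or 3 or replicate 3 labelled *sma-9*, and the higher ones 10 without *sma-3* replicate 3 and 11 without *sma-3* replicate 2 or replicate 3 labelled *sma-9*. *clec-66* was at 32.8, 31.6 and 33.0 CPM in *sma-3*, 31.7, 29.4 and 20.2 CPM in the wild-type and 3.75, 6.08 and 3.81 CPM in the libraries labelled *sma-9* (log2 difference 2.62 ± 0.19, adjusted p = 3.96e-05). *clec-76* was the reverse, at 7.34, 5.55 and 4.81 CPM in *sma-3*, 4.49, 3.81 and 9.77 CPM in the wild-type and 34.8, 44.3 and 46.3 CPM in the libraries labelled *sma-9* (log2 difference −2.64 ± 0.28, adjusted p = 3.94e-04). In both the libraries labelled *sma-9* were the ones away from the wild-type. Of 16 tested infection and *daf-16* response genes 6 were higher (37.5%, 3 to 7 with a library left out) and 2 lower (12.5%, 1 to 2). *irg-1* and *thn-2*, which respond to pathogens, were higher in *sma-3*, with the wild-type near the libraries labelled *sma-9*. *irg-1* was at 15.6, 22.2 and 24.7 CPM against 2.67, 2.03 and 3.51 CPM (2.54 ± 0.31, adjusted p = 8.80e-04) with the wild-type at 4.88, 1.74 and 1.65 CPM, and *thn-2* at 11.5, 12.4 and 9.97 CPM against 1.43, 1.48 and 1.30 CPM (2.35 ± 0.14, adjusted p = 1.18e-05) with the wild-type at 2.21, 1.61 and 1.23 CPM. Of 45 tested antimicrobial peptide and saposin genes 9 were higher (20.0%, 1 to 13 with a library left out) and 3 lower (6.67%, 1 to 4). *cnc-4*, an epidermal caenacin peptide gene, was lower in *sma-3*, at 1.57, 1.14 and 0.827 CPM against 11.6, 6.24 and 7.18 CPM (−2.07 ± 0.39, adjusted p = 0.0073).

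In 2 families of detoxification genes more were higher than lower in *sma-3*, whereas the cytochrome P450 genes described below were split. Of 62 UDP-glucuronosyltransferases 13 were higher and 5 lower, and of 35 glutathione S-transferases 10 were higher and 1 lower. The higher UDP-glucuronosyltransferases numbered 8 without *sma-3* replicate 2 or 3 or replicate 2 labelled *sma-9*, the lower ones 2 without *sma-3* replicate 2 or 3 or replicate 2 or 3 labelled *sma-9* and 8 without replicate 1 labelled *sma-9*. The higher glutathione S-transferases numbered 5 without *sma-3* replicate 3 or replicate 3 labelled *sma-9* and 6 without *sma-3* replicate 2 or replicate 2 labelled *sma-9*, the lower ones 4 without wild-type replicate 3. *ugt-1* was at 48.0, 54.1 and 60.4 CPM in *sma-3*, 15.6, 13.4 and 11.98 CPM in the wild-type and 7.73, 6.71 and 6.80 CPM in the libraries labelled *sma-9* (log2 difference 2.77 ± 0.12, adjusted p = 8.57e-07). *ugt-63* went the other way, at 3.84, 3.69 and 4.95 CPM in *sma-3* against 17.9, 32.9 and 30.2 CPM (−2.40 ± 0.26, adjusted p = 5.13e-04). *gst-10* was at 77.0, 84.0 and 92.5 CPM in *sma-3* and 32.9, 31.5 and 24.6 CPM in the other mutant (1.49 ± 0.11, adjusted p = 5.84e-05), with the wild-type at the *sma-3* level (87.9, 93.8 and 83.6 CPM).

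Of 31 ABC transporters 8 were higher (5 without *sma-3* replicate 2 or 3) and 2 lower (1 without wild-type replicate 1, *sma-3* replicate 2 or 3 or replicate 2 or 3 labelled *sma-9* and 4 without wild-type replicate 3). *pgp-6* was at 95.4, 122 and 147 CPM in *sma-3* and 15.2, 15.9 and 23.4 CPM in the libraries labelled *sma-9* (log2 difference 2.68 ± 0.31, adjusted p = 6.25e-04), and its neighbour *pgp-5* at 59.6, 77.2 and 91.4 CPM against 8.55, 10.6 and 14.5 CPM (2.66 ± 0.37, adjusted p = 0.00187). *haf-6* varied little within groups, at 65.4, 62.4 and 60.7 CPM in the wild-type, 44.9, 47.2 and 46.5 CPM in *sma-3* and 8.60, 7.69 and 7.98 CPM in the libraries labelled *sma-9* (log2 difference 2.38 ± 0.07, adjusted p = 5.59e-08). The metallothionein gene *mtl-2*, which encodes a metal-binding protein of the intestine, was at 162, 205 and 240.2 CPM in *sma-3* against 14.95, 41.6 and 36.8 CPM (2.77 ± 0.40, adjusted p = 0.00227), and the wild-type at 15.5, 12.8 and 31.3 CPM. Of 54 tested cytochrome P450 genes, oxidative enzymes of varied substrates, 9 were lower (16.7%) and 8 higher (14.8%), with a median log2 difference of 0.0. The higher ones numbered 5 without *sma-3* replicate 3 or replicate 3 labelled *sma-9*. *cyp-29A3* was at 2.34, 2.38 and 2.94 CPM in *sma-3* against 9.45, 8.82 and 9.26 CPM (−1.52 ± 0.10, adjusted p = 2.42e-05), with the wild-type near the latter.

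Of 192 nuclear hormone receptors 16 were lower (4 without *sma-3* replicate 3, 5 without *sma-3* replicate 2, 6 without replicate 3 labelled *sma-9*, 7 without replicate 2 labelled *sma-9* and 8 without *sma-3* replicate 1) and 14 higher (9 without *sma-3* replicate 3 or replicate 3 labelled *sma-9* and 22 without wild-type replicate 3), shares close to the background. *nhr-74* stood out, at 12.7, 7.01 and 6.87 CPM in *sma-3*, 16.4, 15.1 and 35.1 CPM in the wild-type and 90.2, 96.6 and 110.5 CPM in the libraries labelled *sma-9* (log2 difference −3.39 ± 0.31, adjusted p = 1.74e-04). *zip-10*, a bZIP factor, was above the wild-type in both mutants and highest in the libraries labelled *sma-9*, at 35.9, 22.7 and 31.4 CPM against 8.44, 10.9 and 12.5 CPM in *sma-3* (−1.41 ± 0.24, adjusted p = 0.00456), with the wild-type at 5.53, 5.74 and 2.98 CPM. Nematode-specific peptide genes, short secreted products of unknown role, were called for 18 of 26, 10 lower (6 without *sma-3* replicate 1 or replicate 3 labelled *sma-9*) and 8 higher (4 without *sma-3* replicate 2 or 3 and 5 without replicate 2 or 3 labelled *sma-9*). *nspc-19* was lower in *sma-3*, at 6.29, 9.23 and 8.22 CPM against 25.7, 21.1 and 21.03 CPM (−1.41 ± 0.16, adjusted p = 5.40e-04), and *nspb-12* higher, at 17.4, 22.1 and 24.5 CPM against 6.51, 4.48 and 5.76 CPM (1.76 ± 0.35, adjusted p = 0.0104). Of 93 neuropeptide genes 12 were lower and 4 higher (1 without *sma-3* replicate 2 or 3 or replicate 1, 2 or 3 labelled *sma-9* and 2 without *sma-3* replicate 1). *flp-3*, which encodes FMRFamide-like peptides, was at 20.3, 19.3 and 17.9 CPM in *sma-3* and 31.2, 31.9 and 29.7 CPM in the libraries labelled *sma-9* (log2 difference −0.66 ± 0.08, adjusted p = 8.62e-04).

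A set of 6 genes had been picked by the study on these same samples as changed in opposite directions in the mutants, so their difference is not independent evidence and is given as a description. All were lower in *sma-3*. *catp-3*, of the family of sodium-potassium pumps, was at 8.28, 9.71 and 9.37 CPM in *sma-3*, 55.4, 37.6 and 19.3 CPM in the wild-type and 62.01, 72.4 and 83.7 CPM in the libraries labelled *sma-9*. *gdh-1*, glutamate dehydrogenase, was at 1672, 1591 and 1549 CPM, 2197, 1998 and 2102 CPM and 2709, 3037 and 2411 CPM in the same order. *nspe-7*, *nspc-16* and *C54E4.5* also had the wild-type between the mutants (log2 difference between the mutants −1.74, −1.33 and −0.94). *arrd-19* had the wild-type at 17.8, 15.6 and 24.7 CPM, overlapping 23.3, 28.05 and 21.8 CPM in the libraries labelled *sma-9*, and is one of the 13 genes of the run on chromosome V.

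SMA-9 has a known role in the M lineage, which makes muscles and coelomocytes, and 3 of 16 tested M lineage genes were called, all higher in *sma-3*, with a lower one (1 gene) only without wild-type replicate 3 or with the 6 mutant libraries alone. *sem-2*, a SoxC factor of sex myoblast fate, was at 82.3, 95.2 and 90.9 CPM in *sma-3*, 56.2, 73.1 and 53.2 CPM in the wild-type and 58.4, 41.0 and 43.2 CPM in the libraries labelled *sma-9* (log2 difference 0.91 ± 0.15, adjusted p = 0.00437). *fozi-1*, a zinc finger factor of the same lineage, was at 64.8, 69.7 and 77.2 CPM, 50.3, 43.6 and 47.1 CPM and 38.8, 41.4 and 34.5 CPM in that order (0.87 ± 0.10, adjusted p = 5.35e-04). Both genes are also used outside this lineage, and whole worms do not show which cells the RNA came from. In such bulk RNA, fewer cells of a type and less RNA per cell cannot be told apart.

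Markers of tissues were checked for the same reason. All 16 neuron markers were uncalled (limma, 3 at an unadjusted p under 0.05, 0 called with voom weights, and 1 higher without wild-type replicate 3, without replicate 1 labelled *sma-9* or with quantile normalization), as were 10 of 11 epidermis markers and 31 of 32 germline genes. The log2 difference was negative for 10 of the 11 epidermis markers (median −0.09), and the mutants did not overlap for 2 of them. It was negative for 8 of the 16 neuron markers and 14 of the 32 germline genes. All 8 pharynx markers had a positive log2 difference and 4 were called (median 0.39, 1 without *sma-3* replicate 1, 2 or 3 and 2 without replicate 3 labelled *sma-9*). *myo-2*, a pharyngeal myosin, was at 523, 533 and 541 CPM in *sma-3*, 556, 439 and 611 CPM in the wild-type and 336, 323 and 221 CPM in the libraries labelled *sma-9* (log2 difference 0.88 ± 0.17, adjusted p = 0.00822). The summed pharynx markers ran from 2827 to 3111 CPM in *sma-3* and from 2086 to 2308 CPM in the other mutant, without overlap. The wild-type sums were 2836, 2321 and 2848 CPM. Of 9 intestine markers 3 were higher in *sma-3* (5 without wild-type replicate 3), including the protease *asp-1* and *ifb-2*, an intermediate filament (0.78 ± 0.11, adjusted p = 0.00221). A positive log2 difference was found for 8 of the 9. The sum of all 9 was 7871 to 8213 CPM in *sma-3*, 4514 to 5467 CPM in the libraries labelled *sma-9* and 7661, 6944 and 6397 CPM in the wild-type. Much of this sum is *asp-1*, and no defining marker of a tissue was at 0. The proteases, lysozymes and vitellogenins are largely intestinal, and the part of these sums in their differences was not tested. In body wall muscle 1 of 26 genes was lower and 3 were higher (0 without *sma-3* replicate 2 or 3, 1 without replicate 3 labelled *sma-9* and 6 without wild-type replicate 3). The lower one was *ttn-1*, titin, at 382, 363 and 409.8 CPM in *sma-3*, 707, 761 and 861 CPM in the libraries labelled *sma-9* and 883, 981 and 806 CPM in the wild-type (−1.01 ± 0.11, adjusted p = 3.70e-04). It went against most of its list, in which 23 of 26 genes had a positive log2 difference (median 0.19). The summed muscle genes ran from 28351 to 30364 CPM in *sma-3* and from 24360 to 26674 CPM in the libraries labelled *sma-9*. The wild-type sums were 30849, 28541 and 27127 CPM.

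Of 15 heat shock genes 2 were lower in *sma-3*, 1 higher and 12 not called, and the lower ones numbered 0 without *sma-3* replicate 1, 2 or 3 or replicate 1, 2 or 3 labelled *sma-9*, 4 without wild-type replicate 1 and 9 without wild-type replicate 3. *hsp-16.2*, a small heat shock gene, was at 1.23, 0.788 and 0.778 CPM in *sma-3* and 29.4, 26.9 and 12.4 CPM in the libraries labelled *sma-9* (log2 difference −3.55 ± 0.92, adjusted p = 0.0292), while the wild-type alone ran from 0.942 to 45.8 CPM. Its call was lost whichever mutant library was left out, with adjusted p-values from 0.0589 without replicate 3 labelled *sma-9* to 0.0974 without *sma-3* replicate 2. Its divergent neighbour *hsp-16.41* followed the same pattern (−3.52 ± 0.98, adjusted p = 0.0372), and it too was lost whichever mutant library was left out, with at most 0.113 without *sma-3* replicate 2. With voom weights neither gene was called (adjusted p = 0.117 and 0.149). The small heat shock gene *hsp-12.2* was the higher one (0.72 ± 0.20, adjusted p = 0.0367), and the number of higher ones was 0 without wild-type replicate 1, *sma-3* replicate 1, 2 or 3 or replicate 2 or 3 labelled *sma-9*. The heat shock factor gene *hsf-1* was at 39.4, 37.1 and 40.6 CPM and 39.9, 40.3 and 43.3 CPM in the 2 mutants (−0.08 ± 0.09, adjusted p = 0.617). The 33 proteasome genes gave 0 calls (limma, 4 at an unadjusted p under 0.05, 0 with voom weights). The count of lower ones was 2 without replicate 2 labelled *sma-9* and 4 without wild-type replicate 3, 4 with equal totals, 2 with the 6 mutant libraries alone and 1 with quantile normalization. The 11 genes of propionate breakdown gave 0 calls as well (0 at an unadjusted p under 0.05, 0 with voom weights).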

How the data were processed

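PolyA RNA of 9 libraries was sequenced, and the authors aligned and counted reads with STAR 2.5.1a and normalized them with edgeR, per the labels and the study's methods. The deposited values are log2 CPM that the authors made with a prior count of 2 added, so that the lowest, −5.15, is a gene with no reads. The prior was removed, which gave whole reads for 100% of the values (within 0.1 reads), and the CPM were scaled as the authors had scaled them.

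Genes that reached 1 CPM in 3 or more of the 9 libraries were analysed as log2(CPM + 1) with limma 3.58.1 in R 4.3.3 (lmFit, contrasts.fit, eBayes with a trend), and tables and figures were made with Python 3.11.15. All 9 libraries entered 1 fit, so that the wild-type shares in the estimate of the spread. Two-sided p-values were adjusted by Benjamini-Hochberg over all tested genes. Replicates are described as biological, and no further information on separate cultures was used. Genes were named by rule: *sma-3*, *sma-9* and their pathway, the 6 genes the study names as opposite, the 10 called genes with the largest change and no overlap in each direction, and up to 4 called members of each list in each direction. Members and lists were chosen with earlier results of these data known. Symbols and positions are from the WBcel235 annotation, which held 46821 of the 46875 genes. The scripts were tested on simulated data. Alternatives were other pseudocounts, filters, scalings and thresholds, voom weights on the recovered reads, a replicate block, the mutant libraries alone and each library left out. The runs of adjacent genes, their omission and the *abu*, *pqn* and *idpc* group were added after the data were seen.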

Additional observations from a re-analysis of the deposited data

How the results depend on the processing

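Of 307 named called genes, 192 kept their call under every alternative with a value, 115 lost it under at least 1 and 0 changed direction. The call was lost by 110 genes without *sma-3* replicate 3, by 109 without its replicate 2, by 87 without replicate 3 labelled *sma-9*, by 74 without its replicate 2 and by 63 when every gene with a read was analysed without a filter. With a library left out the calls numbered 932 to 3142 in all, 482 to 1635 lower and 443 to 1507 higher. An adjusted p of 0.01 left 824 calls (420 lower and 404 higher), and a change of at least 2-fold left 507 (173 lower and 334 higher).

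The replicate numbers did not pair the samples. Deviations of same-numbered mutant libraries from their group means correlated at −0.233, −0.379 and 0.105, and with the replicate block 789 genes were lower and 774 higher. Under the block 3 apical matrix proteins and 3 ribosome biogenesis genes were lower and 2 pharynx markers higher, and 52 named genes lost their call.

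Counts over lists moved with the thresholds. At an adjusted p of 0.01, 22 *col* collagens, 8 *abu*, *pqn* and *idpc* genes, 9 beta-oxidation genes, 7 UDP-glucuronosyltransferases, 3 glutathione S-transferases, 9 C-type lectins and 1 pharynx marker were higher, and 1 apical matrix protein, 3 ribosome biogenesis genes and 9 C-type lectins lower. With a change of at least 2-fold, 1 DBL-1 pathway member, 2 furrow collagens, 1 apical matrix protein, 0 ER chaperones, 0 ribosome biogenesis genes and 6 C-type lectins were lower, and 2 beta-oxidation genes, 4 lysozymes, 3 aspartyl and cysteine proteases, 2 glutathione S-transferases, 6 C-type lectins and 0 pharynx markers higher. With a mean of at least 5 CPM, 23 *col* collagens, 1 vitellogenin and 3 lysozymes were higher and 9 C-type lectins lower, on fewer tested genes. Without a filter, 3 apical matrix proteins and 5 ribosome biogenesis genes were lower and 2 pharynx markers higher. Apical matrix proteins numbered 4 with equal totals and 16 with the 6 mutant libraries alone. The causes were not tested, beyond the fewer genes or libraries that a setting leaves.

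With a library left out, the lower members ranged from 4 to 6 for the DBL-1 pathway and for the furrow collagens, from 1 to 15 for apical matrix proteins, from 5 to 9 for ER chaperones, from 3 to 8 for ribosome biogenesis and from 9 to 18 for C-type lectins. The higher members ranged from 17 to 57 for *col* collagens, from 8 to 30 for *abu*, *pqn* and *idpc* genes, from 9 to 21 for beta-oxidation, from 3 to 6 for vitellogenins, from 5 to 9 for lysozymes, from 7 to 10 for aspartyl and cysteine proteases, from 8 to 15 for UDP-glucuronosyltransferases, from 5 to 12 for glutathione S-transferases, from 10 to 23 for C-type lectins and from 1 to 6 for pharynx markers.

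With 3 libraries a group, small differences of single genes remain undetected, and levels under 0.0503 CPM rest on fewer than 3 reads in the shallowest library. Counting error is not the only error of such values.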

Other observations

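Some genes of stress defence not described above also differed. The catalase genes *ctl-1* and *ctl-2*, which break down hydrogen peroxide, were at 31.4, 34.3 and 37.9 CPM and 177, 190.0 and 220.3 CPM in *sma-3* and at 18.6, 24.0 and 17.8 CPM and 111, 118 and 88.7 CPM in the libraries labelled *sma-9* (by limma, adjusted p = 0.00314 and 0.0015), and for both the wild-type lay between the mutants. They are near-identical neighbours, so reads may have been shared. *cysl-2* and *cysl-3*, cysteine synthase homologues, were lower in *sma-3*, with log2 differences of −0.64 ± 0.13 (adjusted p = 0.0102) and −0.68 ± 0.09 (adjusted p = 0.00171). *dod-22*, regulated by DAF-16, was near its wild-type level in *sma-3*, at 2.37, 2.82 and 2.55 CPM, and at 11.04, 9.01 and 11.23 CPM in the libraries labelled *sma-9* (log2 difference −1.67 ± 0.24, adjusted p = 0.00222). Of 141 tested F-box, MATH and BTB genes, whose products mostly serve as ubiquitin ligase adaptors, 16 were lower (11.3%) and 18 higher (12.8%). These shares are close to the 9.10% and 8.56% of all tested genes. The lower ones numbered 9 without *sma-3* replicate 2 or 3 or replicate 3 labelled *sma-9*. The higher ones numbered 9 without *sma-3* replicate 2, 10 without *sma-3* replicate 3 and 11 without replicate 3 labelled *sma-9*.

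By chromosome, the share of tested genes lower in *sma-3* ran from 7.20% on X to 10.7% on II, and the share higher from 5.94% on I to 11.1% on X. Neighbouring genes are not independent, and these shares were not tested.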
